A study of Mus musculus with 20 samples.

Results

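GPS2 binding sites called in mouse brown adipose tissue (BAT) were set against those called in the 3T3-L1 line. All 4 deposited GPS2 peak lists were taken, restricted to chromosomes 1 to 19. They held 158026 of the 164307 deposited peaks: 39649 in male BAT, 18722 in female BAT, 42486 in untreated 3T3-L1 cells and 57169 in 3T3-L1 cells given FCCP. The series has 20 ChIP-seq samples of BAT and of 3T3-L1, for GPS2, H3K9me3, RNA polymerase II and input DNA, and the samples other than these 4 have no list here.

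The tissue came from GPS2 wildtype mice on a mixed 129sv/C57BL6J background. These were the controls of mice whose floxed Gps2 gene was deleted by Adipoq-Cre, and the GPS2 library of the knockout BAT of the same sex was the background of each tissue list. The adiponectin promoter drives that Cre, so cells of the tissue without adiponectin expression keep GPS2 in the knockout. The labels used here give no age and do not say how many animals a library holds. Their growth protocol speaks of male mice throughout, although the samples are labelled male and female. The 3T3-L1 cells carried no named allele, and the dose and time of FCCP are not given. Each cell list was called on 1 pool of a library A and a library B, per the file headers. Peak lists hold no expression values, so the tissue and the line could not be checked against marker genes.

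GPS2 is a small protein that works with HDAC3 and TBL1 inside corepressor complexes built on N-CoR or SMRT, which keep target genes of nuclear receptors repressed. It also resides at mitochondria and can move to the nucleus when mitochondria are stressed. FCCP is an uncoupler that collapses the mitochondrial membrane potential. BAT is rich in mitochondria and burns fuel for heat through UCP1, whereas 3T3-L1 is a fibroblast-like preadipocyte line that can be turned into white-type adipocytes. Whether the cells were differentiated is not given in the labels used here.

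The sides were not called by the same rule. The tissue lists were called from 1 library each, with 30069322 tags (male) and 39310667 tags (female), with a cut-off of 0.05 on the false discovery rate. A tissue peak had to be 2-fold above the knockout and 2-fold above the surrounding 10000 bp. The cell lists had 74504840 tags (untreated) and 66979291 tags (FCCP), a cut-off of 0.001, a minimum of 4-fold above the surroundings and no control. A tag is 1 mapped read end. At most 1 tag per base pair was considered in the tissue lists and 3 in the cell lists. Candidates before the filters numbered 277145 in male BAT, 205727 in female BAT, 274316 in untreated cells and 287000 after FCCP. The comparison with the knockout removed 209409 male and 171975 female candidates, and the surroundings filter a further 27687 and 14516. In the cells the surroundings filter removed 229680 (untreated) and 226519 (FCCP). Tissue, library depth and calling rule therefore differ together, and their parts in any difference between the sides cannot be told apart. The 2 lists of a side are different conditions and no true replicates. With 2 lists against 2, an exact two-sided permutation test cannot go below p = 0.333, so no difference here passes a threshold. Whether the values of the sides overlap is given instead.

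Tissue peaks were narrower. HOMER, the peak caller, gives all peaks of a list 1 width: 134 bp in male BAT, 138 bp in female BAT, 264 bp in untreated cells and 260 bp after FCCP. The mean was 136 ± 2.83 bp in tissue and 262 ± 2.83 bp in cells (SD, n = 2 lists), a difference of -126 bp (exact permutation p = 0.333). No more than 2 peaks of a list had another width. The estimated fragment length was 132 and 138 bp in tissue, and 170 and 174 bp in cells. The width was thus 1.02 and 1.00 times the fragment length in tissue, and 1.55 and 1.49 times in cells. The gap in width was larger than the gap in fragment length.

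Tissue peaks also had the higher focus ratio. This is the share of a peak's tags that lie on the side of its centre where their strand should put them, and it is near 1 for a single sharp site. The median was 0.773 in male BAT, 0.750 in female BAT, 0.725 in untreated cells and 0.725 after FCCP. Both tissue lists lay above both cell lists, by 0.0365 on average (0.7615 ± 0.0163 against 0.725 with no spread between the cell lists, SD, n = 2 lists, exact permutation p = 0.333). The same order held within each of the 19 chromosomes, 100% of those compared. On single chromosomes the median ran from 0.760 to 0.789 in male BAT, 0.739 to 0.773 in female BAT, 0.7025 to 0.737 in untreated cells and 0.700 to 0.737 after FCCP.

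The sides separated most in the upper part of the distribution. A focus ratio of at least 0.9 was held by 11.7% of male BAT peaks, 8.55% of female BAT peaks, 3.06% of untreated and 3.45% of FCCP peaks. A ratio under 0.6 was rarer in tissue, at 4.26% and 5.52%, than in cells, at 7.98% and 7.53%. Within each list the peaks still spread widely, with quartiles of 0.700 and 0.846 in male BAT and of 0.661 and 0.788 in untreated cells. The ranges of single peaks in tissue and cells therefore overlapped over most of their span.

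**Figure D1:**
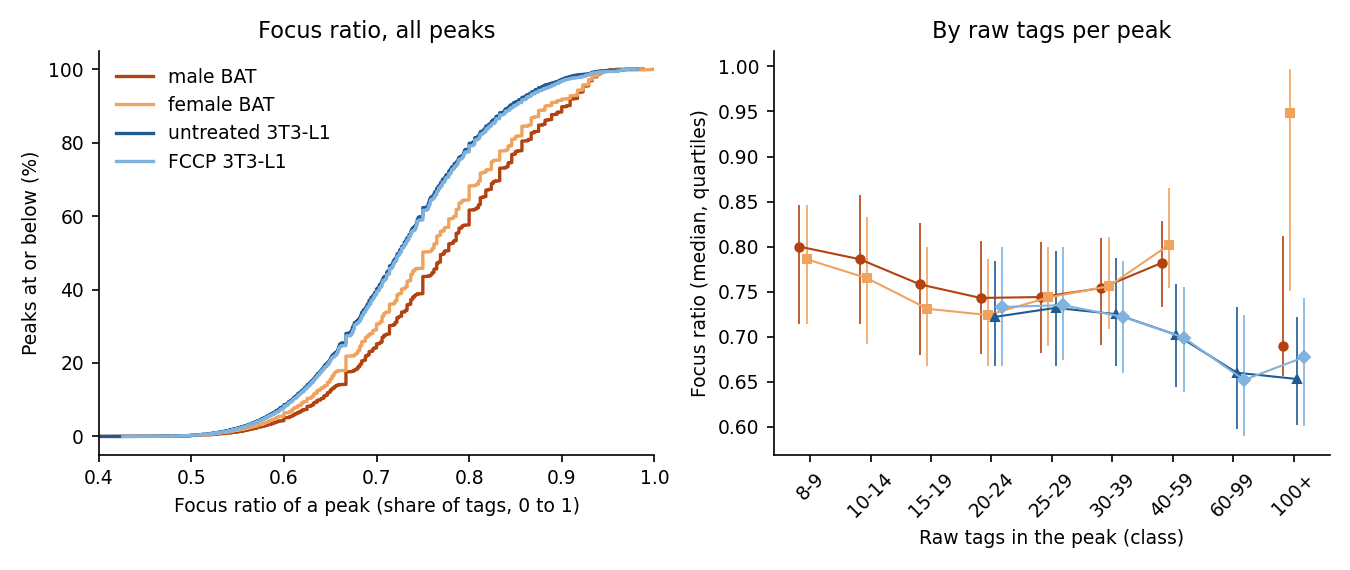
Focus ratio of GPS2 peaks on chromosomes 1 to 19. Left, the cumulative share of peaks (percent, y) at or below a focus ratio (x) for the 4 lists. Right, the median (points) and quartiles (bars) of the focus ratio (y) by class of raw tags per peak (x), for classes of at least 20 peaks. The tissue curves lie to the right of the cell curves, and the classes of 20 to 29 tags lie close together.

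The focus ratio rests on few tags, and the number of tags differed between the sides. The median peak held 13 tags in male BAT, 13 in female BAT, 30 in untreated cells and 27 after FCCP. At 20 to 24 tags the median focus ratios were 0.743, 0.724, 0.722 and 0.733 in the order male BAT, female BAT, untreated and FCCP, and the sides overlapped. They were 0.744, 0.7435, 0.732 and 0.735 at 25 to 29 tags, where tissue was above cells by little. The gap was wider at 40 to 59 tags. The medians there were 0.782 in 97 male and 0.802 in 20 female peaks, against 0.702 in 5207 untreated and 0.699 in 4917 FCCP peaks. The 100 female peaks of at least 100 tags had a median of 0.948, against 0.690 in 29 male, 0.653 in 274 untreated and 0.678 in 258 FCCP peaks. In that class only female BAT stood far above the cells, and male BAT was above them by little. Among peaks of at least 20 tags the medians were 0.744, 0.735, 0.725 and 0.725, a side difference of 0.0145. Over all peaks, the side difference of 0.0365 was 0.025 without the male BAT list and 0.048 without the female BAT list.

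The focus ratio also went with how far a peak stood above its surroundings. In peaks 4 to 6-fold over the surrounding 10000 bp the medians were 0.750 (male BAT), 0.741 (female BAT), 0.718 (untreated) and 0.719 (FCCP). In peaks at least 20-fold over they were 0.875, 0.937, 0.765 and 0.7485 in the same order. Tissue was above cells in both classes. In tissue, peaks 2 to 3-fold over the knockout had medians of 0.742 (male) and 0.723 (female), and peaks at least 10-fold over it 0.789 and 0.765. Across peaks the Spearman correlation of the focus ratio with the fold over the surroundings was 0.309, 0.322, 0.110 and 0.129 (39649, 18722, 42486 and 57169 peaks). Both quantities come from the same tags of the same library.

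Median height per peak overlapped between the sides when all peaks were taken. The normalized tag count gives a peak's tags per 10000000 tags of its library. Its median was 4.32 in male BAT, 3.31 in female BAT, 4.03 in untreated cells and 4.03 after FCCP, so both cell lists fell between the tissue lists (difference -0.215). The difference was 0.29 without the female BAT list and -0.72 without the male one. Among peaks of at least 20 tags both tissue lists were above both cell lists, at 7.65 and 5.60 against 4.03 and 4.03. This order was fixed by the filter, as 20 tags equal 6.65 (male) and 5.09 (female) normalized tags, above both cell medians. The filter kept 4759 male and 1422 female BAT peaks, against 42486 untreated and 57166 FCCP peaks. The choice of peaks thus decided whether and how the sides differed in height. By chromosome, both cell medians were above both tissue medians on 3 of 19 (15.8%, chromosomes 1, 13 and 14), and the reverse was found on none. Divided by peak width, the height was 3.22 and 2.40 normalized tags per 100 bp in male and female BAT and 1.53 and 1.55 in untreated and FCCP cells. Per 100 bp, both tissue lists were thus above both cell lists, by 1.27 (2.81 ± 0.584 against 1.54 ± 0.0166, SD, n = 2 lists). The calling thresholds bound this height. The fewest tags asked of a peak were 4.78 and 4.29 times the header's expected tags per peak in tissue, and 2.64 and 2.75 times in cells. The 5th percentile per 100 bp in tissue, 2.23 and 1.84, was already above the cell medians, so the order was partly set by the calling.

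The tissue lists differed from each other in their tallest peaks. At least 100 normalized tags were reached by 5 peaks in male BAT, 61 in female BAT, 7 in untreated cells and 7 after FCCP. The tallest 1% of peaks held 31.3% of all normalized tags in peaks in female BAT, against 3.92% in male BAT, 4.54% in untreated and 4.25% in FCCP cells. The other three lists were alike in this, and female BAT stood apart. The tallest peak was at chr9:95235259-95235393 in male BAT (511.2 normalized tags), at chr12:97457264-97457402 in female BAT (1813.2), and at chr2:98467867-98468131 in untreated cells (215.3), all on mm8. The tallest FCCP peak, with 223.5, started at the same base as the untreated one. The female peak held 7128 tags over 138 bp, although the header sets at most 1 tag per base pair, so the deposited normalized tag count is not held to that limit. Between the 10th and the 90th percentile heights spread most in male BAT, where the ratio of the 2 percentiles was 2.33, against 1.80 in female BAT, 1.76 in untreated and 1.74 in FCCP cells. Over all peaks the coefficient of variation was highest in female BAT, at 6.10, against 0.795, 0.607 and 0.563 in male BAT, untreated and FCCP cells.

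**Figure D2:**
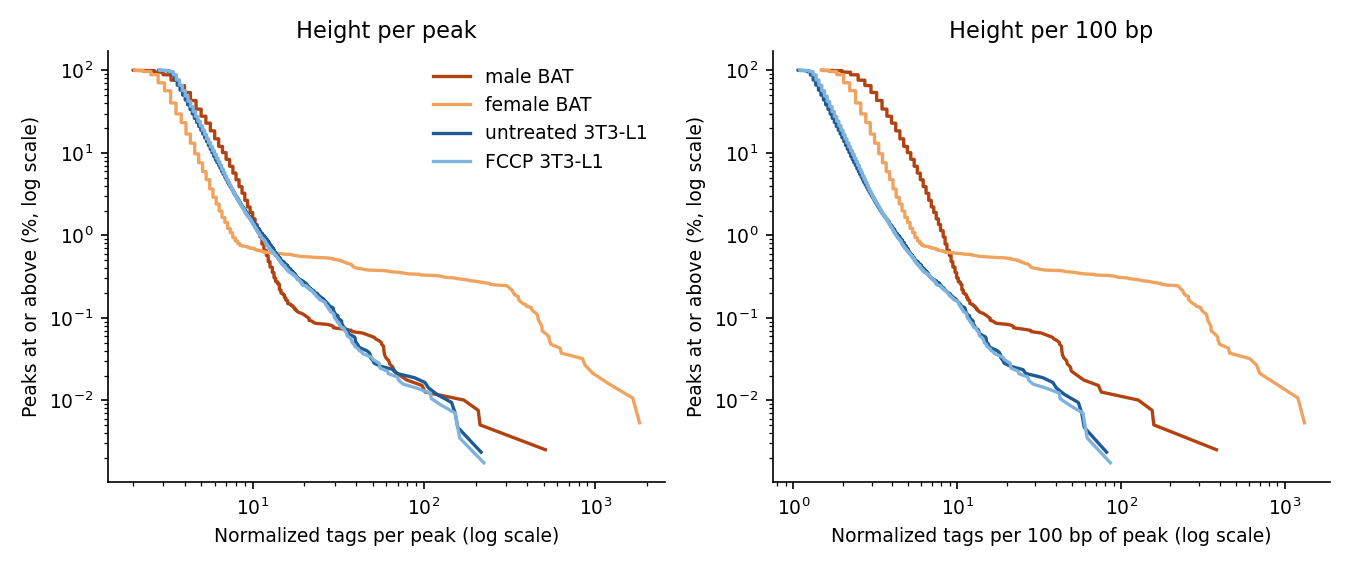
Height of GPS2 peaks on chromosomes 1 to 19. The share of a list's peaks (percent, log scale, y) that reach a height (log scale, x) in normalized tags per peak (left) and per 100 bp of peak (right). Per peak the cell curves start at greater heights than the tissue curves and run between them around the medians, and the female BAT curve has a long tail that reaches 1813.2 normalized tags.

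Relative to the tags expected per peak, tissue peaks stood in places with more tags around them. The local level was computed as a peak's tags divided by its fold over the surroundings and by the header's expected tags per peak. In cells these, 9.835 and 8.741, are what an even spread of all tags over the genome gives. In tissue they, 1.675 and 2.33, are lower than that. The tissue levels, and the shares above the expected one, may therefore be too high relative to cells, by an amount not computed here. The median local level was 1.27 in male BAT, 1.06 in female BAT, 0.604 in untreated cells and 0.622 after FCCP. Tissue averaged 1.17 ± 0.150 and cells 0.613 ± 0.0130 (SD, n = 2 lists), and the order held on 19 of 19 chromosomes (100%). The fold over the surroundings had medians of 6.05, 5.28, 5.03 and 5.08 in the same order, and both tissue medians were higher on 14 of 19 chromosomes (73.7%), with the reverse on none. A level above the expected one surrounded 69.2% of male and 55.9% of female BAT peaks, but 5.65% of untreated and 6.42% of FCCP peaks.

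The thresholds themselves bound this quantity. A peak at the tag threshold (8, 10, 26 and 24 tags in the order male BAT, female BAT, untreated and FCCP) passes the surroundings rule up to a local level of 2.39, 2.15, 0.661 and 0.686. To see the lists under 1 nominal rule (the common rule), all were held to at least 5 times the expected tags and at least 4-fold over the surroundings. This setting was chosen after the data were seen. The header's expected tags in tissue are below an even spread of all tags, so the rule asked less of tissue peaks relative to all tags. The rule kept 34873 male BAT peaks (88.0%), 11089 female BAT peaks (59.2%), 2522 untreated peaks (5.94%) and 4046 FCCP peaks (7.08%). The median local level of the kept peaks was 1.26, 1.14, 1.10 and 1.08. The gap was smaller than with all peaks. Given the lower expected tags in tissue, what remained is not read as a tissue excess, and the part of this mismatch was not tested. The local level is computed from the same quantities that this rule filters on, and the rule kept few of the cell peaks, so the smaller gap is partly set by the rule. With the other choices of peaks the medians lay further apart than this. At 4-fold over the surroundings the medians were 1.23 and 1.00 in tissue against 0.604 and 0.622 in cells. For peaks of at least 20 tags the tissue medians were 2.09 and 1.58 against the same cell values. With the 18722 top-scoring peaks of each list the medians were 1.72, 1.06, 0.739 and 0.806. With the common rule the focus ratio was still apart, at 0.778 and 0.757 in tissue and 0.673 and 0.685 in cells. The height per peak was then greater in cells, at 8.05 and 7.61 against 4.32 and 3.56 normalized tags, and the height per 100 bp overlapped, at 3.22, 2.58, 3.05 and 2.93. The rule asks for at least 5 times the expected tags, which were 1.675 and 2.33 per peak in tissue and 9.835 and 8.741 in cells. In normalized tags, its floor in the cells was above both tissue medians, so the order per peak was set by the rule.

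**Figure D3:**
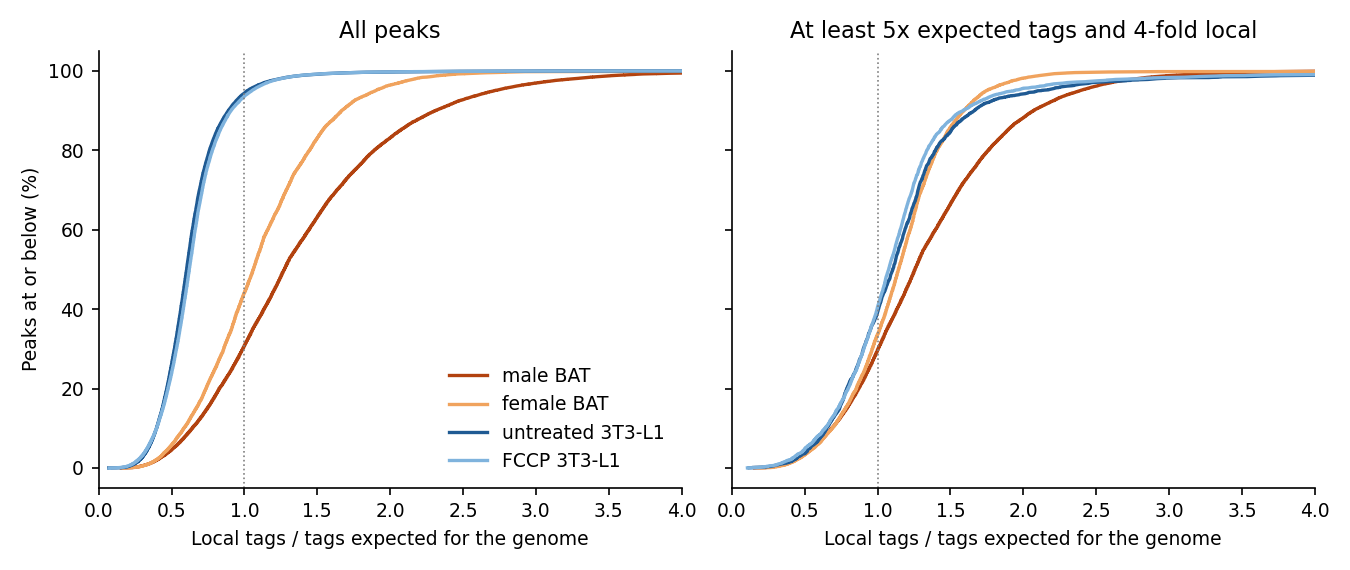
Tag level around GPS2 peaks on chromosomes 1 to 19. The cumulative share of peaks (percent, y) at or below a local level (x), for all peaks (left) and under the common rule (right). The local level is the tags of the surrounding 10000 bp relative to the header's expected tags (1, dotted line). In tissue these expected tags are below an even spread of all tags. With all peaks the cell medians, 0.604 and 0.622, lie below the tissue medians, 1.27 and 1.06. Under the common rule all 4 medians lie between 1.08 and 1.26.

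The sides placed their peaks on different chromosomes. A chromosome was counted where both tissue shares lay above, or both below, both cell shares. Tissue was higher on 8 of 19 chromosomes (42.1%: 2, 4, 7, 9, 11, 12, 14 and 18) and cells on 8 (42.1%: 1, 3, 5, 6, 10, 13, 15 and 19), together 84.2%. Chromosome 11 differed most towards tissue. It held 6.96% of male and 6.32% of female BAT peaks, against 3.41% of untreated and 3.47% of FCCP peaks, a mean share 1.93 times as high in tissue. Chromosome 4 was 1.55 times and chromosome 12 1.52 times as high in tissue. Chromosome 1 differed most towards cells, with 7.28% and 7.44% of male and female BAT peaks against 11.9% and 11.5% of untreated and FCCP peaks (0.629 times). On chromosome 19 the sides nearly touched, at 2.96% in female BAT and 2.97% after FCCP.

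**Figure D4:**
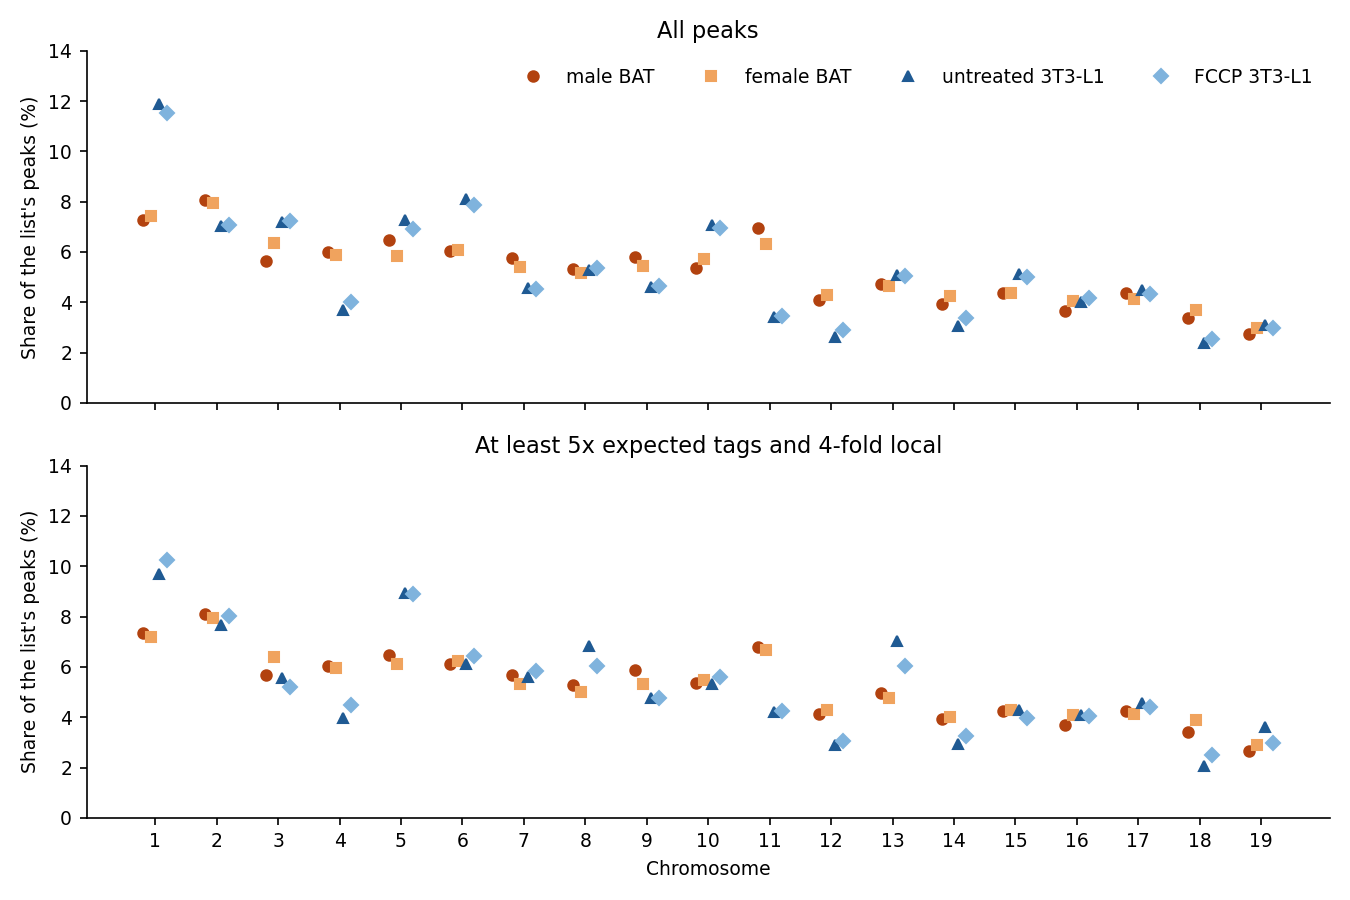
Share of each list's peaks (percent, y) on chromosomes 1 to 19 (x), for all peaks (top) and under the common rule (bottom). Each point is 1 list. Chromosome 11 is higher in both tissue lists and chromosome 1 in both cell lists, in both panels.

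Some of these directions changed when other peaks were taken. With the 18722 top-scoring peaks of each list, tissue was higher on 7 chromosomes (36.8%) and cells on 5 (26.3%), together 63.2%. All 12 had the direction seen with all peaks. Under the common rule tissue was higher on 7 (36.8%) and cells on 6 (31.6%), together 68.4%. There 6 tissue-high and 4 cell-high chromosomes kept their direction, and chromosome 3 turned to tissue. At 4-fold over the surroundings the counts were 8 (42.1%) and 10 (52.6%), and at 20 tags or more 9 and 9 (47.4% each), together 94.7% in either case. Among peaks of at least 20 tags, chromosomes 14 and 19 turned. Chromosomes 4, 9, 11, 12 and 18 were higher in tissue and chromosomes 1, 5 and 13 higher in cells under every choice of peaks tried (all peaks, equal numbers, 4-fold over the surroundings, at least 20 tags and the common rule). These choices are not independent. The 4-fold and 20-tag choices left the cell lists nearly unchanged, and equal numbers left the female BAT list whole.

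The sides also separated in windows along the chromosomes. Of 2412 windows of 1 Mb, both tissue shares exceeded both cell shares in 982 (40.7%) and the reverse held in 1049 (43.5%), together 84.2%. Of 257 windows of 10 Mb these were 118 (45.9%) and 109 (42.4%), together 88.3%. The window of chromosome 11 from 100 to 110 Mb held 359 male and 171 female BAT peaks (0.905% and 0.913% of their lists), against 87 untreated and 110 FCCP peaks (0.205% and 0.192%). Chromosome 8 from 120 to 130 Mb held 369 male and 122 female BAT peaks against 11 untreated and 14 FCCP peaks. Chromosome 4 from 130 to 140 Mb held 354 and 144 against 32 and 34. The reverse was seen on chromosome 5 from 10 to 20 Mb, with 52 male and 30 female BAT peaks against 869 untreated and 989 FCCP peaks. Chromosome 1 from 20 to 30 Mb held 58 and 43 against 428 and 545. Chromosome 1 from 140 to 150 Mb also belonged to these 3 windows, with 72 and 36 against 909 and 937.

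The median local level in the chromosome 11 window was 1.73 in male and 1.39 in female BAT, and in the chromosome 5 window 0.690 and 0.664. The cell peaks had 0.665 (untreated) and 0.665 (FCCP) in the chromosome 11 window, and 0.644 and 0.651 in the chromosome 5 window. In the chromosome 4 window the local level was 1.67 and 1.43 in male and female BAT and 0.776 and 0.835 in untreated and FCCP cells. In the chromosome 8 window it was 1.87 and 1.52 in tissue and 1.31 and 1.21 in cells, where the cell values rest on 11 and 14 peaks. All 4 lists thus had higher levels in the chromosome 4 and 8 windows than over all their peaks. Under the common rule the chromosome 5 window kept its direction, with 0.123% and 0.108% of male and female BAT peaks against 2.06% and 1.63% of untreated and FCCP peaks. So did the chromosome 11 window, with 0.855% and 1.07% against 0.397% and 0.272%. In the chromosome 11 window the cell values rest on 10 and 11 peaks.

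Across the 2412 windows of 1 Mb, peak numbers ran together within a side and against each other between the sides. The Spearman correlation was 0.817 between male and female BAT and 0.930 between untreated and FCCP cells. It was -0.517 and -0.543 between male BAT and untreated and FCCP cells, and -0.400 and -0.424 for female BAT. Each of the 4 correlations between the sides was negative on all 19 chromosomes. Neighbouring windows are not independent and share base composition and mappability, so no p is given. Where the cells had fewest peaks, in the 603 windows with the lowest numbers, a window held on average 27.4 male and 11.3 female BAT peaks. In the 603 windows with the highest numbers it held 8.74 and 5.02. The densest 10% of windows (241 in each list) shared 127 between male and female BAT (52.7%) and 192 between untreated and FCCP cells (79.7%). Between the sides they shared 0 (male BAT with either cell list), 2 (female BAT with untreated) and 3 (female BAT with FCCP).

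This opposition held under some choices of peaks and not under others. At 4-fold over the surroundings the correlations between the sides were -0.505 and -0.530 for male BAT with untreated and FCCP cells, and -0.335 and -0.357 for female BAT. Among peaks of at least 20 tags they were -0.450, -0.484, -0.363 and -0.380 in the same order. Both settings left the cell lists nearly unchanged, with 42486 untreated peaks and 57169 or 57166 FCCP peaks. They therefore varied the tissue side only. At 18722 peaks in each list the correlations between the sides were weaker, at -0.240, -0.200, -0.160 and -0.129 in the order male with untreated, male with FCCP, female with untreated and female with FCCP. Under the common rule they turned positive, at 0.224, 0.170, 0.219 and 0.164. That rule kept 0.808 within tissue and 0.659 within cells. It left 1155 of the 2412 windows without an untreated peak and 714 without an FCCP peak.

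The local level itself did not run in opposite directions. Over the 1180 windows with at least 5 peaks in each list, the Spearman correlation of the median local level was 0.767 between male and female BAT, 0.828 between untreated and FCCP cells, and 0.423 to 0.478 between the sides. Male BAT peak numbers rose with the local level of their own list (0.715), and so did female ones (0.457). Untreated and FCCP peak numbers fell with theirs (-0.371 and -0.395). These are descriptions over windows, and levels and numbers come from the same peaks. A peak at the tag threshold passes the surroundings rule up to a local level of 2.39 and 2.15 in tissue, but 0.661 and 0.686 in cells. How far this bound sets the signs was not tested.

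The typical spacing of neighbouring peaks relative to the mean overlapped between the sides when all peaks were taken. The median distance between neighbouring centres was 25881 bp in male BAT, 59035 bp in female BAT, 24398 bp in untreated cells and 19679 bp after FCCP. The median divided by the mean distance was 0.427, 0.460, 0.431 and 0.468, so the sides overlapped (difference -0.00545). The difference changed sign without the male BAT list (0.0110) and without the FCCP list (0.0130). Among peaks of at least 20 tags the ratio was lower in tissue, at 0.187 and 0.292 against 0.431 and 0.468. Within chromosomes the ratio was higher in both cell lists on 12 of 19 (63.2%) and in both tissue lists on 3 (15.8%, chromosomes 1, 5 and 11), together 78.9%. Chromosomes 1 and 11 also stood out by share. On chromosome 5 the ratio was 0.422 and 0.437 in male and female BAT against 0.328 and 0.377 in untreated and FCCP cells.

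Neighbours within 10 kb were more frequent in the cell lists when all peaks were taken, and the sides overlapped at equal peak numbers. A neighbour within 10 kb was counted for 25.5% of spacings in male BAT, 13.2% in female BAT, 26.4% in untreated cells and 30.7% after FCCP. The cells were higher by 9.19 percentage points on average, written as -9.19 for tissue minus cells. The difference was -3.03 without the female BAT list and -15.3 without the male one. With 18722 peaks in each list the shares were 26.4%, 13.2%, 16.2% and 15.9%, and the sides overlapped. Relative to the mean the order was the other way with all peaks: spacings under 10% of the list's mean made up 16.3% and 16.4% in tissue and 13.98% and 11.2% in cells. The common rule gave the reverse order here, with 24.8% and 22.9% in cells against 15.4% and 18.9% in tissue, and at 18722 peaks each the sides overlapped. The smallest distance HOMER allows was larger in cells (528 and 522 bp) than in tissue (270 and 276 bp).

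**Figure D5:**
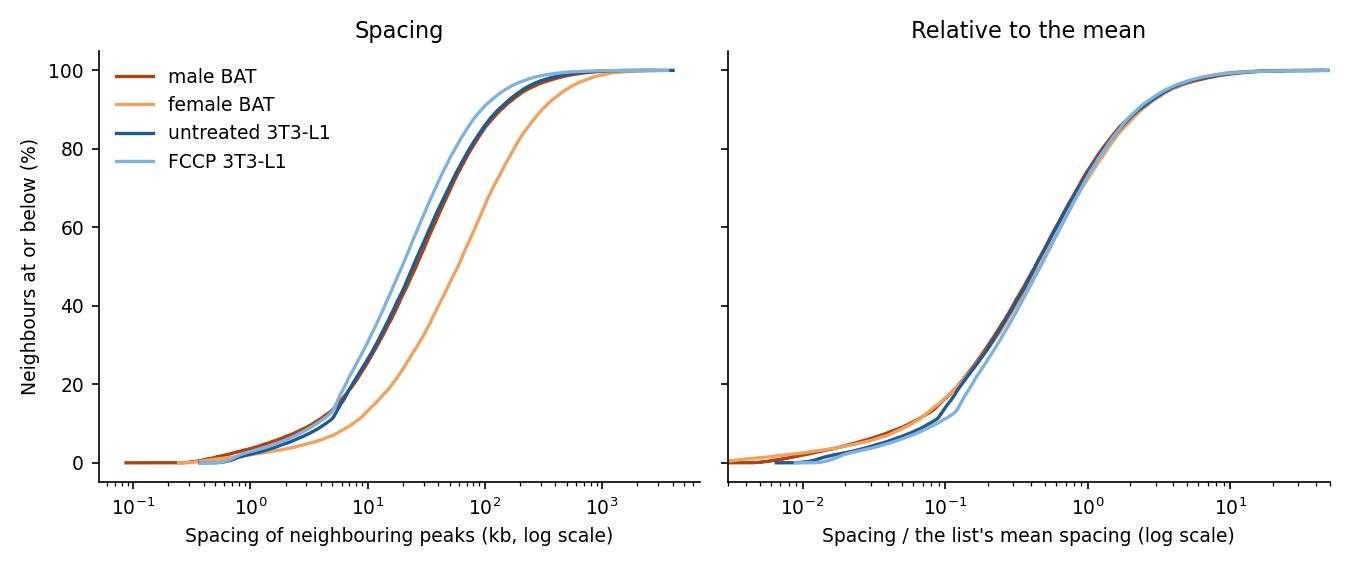
Distance between neighbouring GPS2 peak centres on chromosomes 1 to 19. The cumulative share of neighbours (percent, y) at or below a distance (log scale, x) in kb (left) and relative to the list's mean distance (right). On the left the female BAT curve, with the fewest peaks, is shifted to longer distances, and on the right the curves nearly coincide above 10% of the mean.

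Evenness along the chromosomes was described by the variance of peak numbers over 1 Mb windows divided by their mean. It was 9.99 in male BAT, 4.28 in female BAT, 12.9 in untreated cells and 12.5 after FCCP, with the cells higher by 5.54 on average. The difference was -2.68 without the female BAT list and -8.40 without the male one. The mean number of peaks per window also differed, at 16.4, 7.76, 17.6 and 23.7 in the same order. The standard deviation divided by the mean was 0.780, 0.742, 0.855 and 0.726, and by this measure the sides overlapped. At 18722 peaks each the variance to mean ratio was 11.1, 4.28, 7.99 and 6.34. Male BAT was then the least even list, with 528 empty windows against 103, 76 and 53 in the others. The longest distance between neighbours in untreated cells, 4.04 Mb on chromosome 8 from 121806670 to 125844366, held 166 male and 52 female BAT peaks. The longest after FCCP, 3.62 Mb, lay inside it and held 158 and 47. In male BAT the longest distance was 2.76 Mb and in female BAT 3.13 Mb, both on chromosome 1, and the latter held 180 untreated and 173 FCCP peaks.

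Nearness of single peaks was counted between every pair of lists. With 18722 peaks in each list, 13.6% of male BAT peaks had a female BAT peak centre within 1 kb (Wilson 95% interval 13.1 to 14.1), and 43.7% of untreated peaks had an FCCP one (42.9 to 44.4). Between the sides the share was between 2.88% and 3.71%. The largest of these was male BAT to untreated cells (3.45 to 3.99). With all peaks the contrast was smaller for the tissue lists. A female BAT peak centre lay within 1 kb of 7.85% of male BAT peaks, and a male one of 15.8% of female BAT peaks. An FCCP one lay within 1 kb of 5.68% of male and 6.37% of female BAT peaks. For the cell lists it stayed wide, at 47.0% from untreated to FCCP and 35.6% from FCCP to untreated. From the cell lists to the tissue lists the share was 2.10% to 4.38%. The share depends on the number of peaks in the list compared with, and no chance level was computed. The intervals cover counting error only.

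At 26 places peaks of all 4 lists overlapped. These made up 0.0656% of the male BAT, 0.139% of the female BAT, 0.0612% of the untreated and 0.0455% of the FCCP list. They were among the taller peaks of their lists, with median percentiles by normalized tags of 99.5, 98.6, 92.6 and 93.2. Both tissue heights per 100 bp exceeded both cell heights at all 26, and per peak at 15, with the reverse at 1. The order per 100 bp is partly set by the list widths, as heights are divided by 134 and 138 bp in tissue and by 264 and 260 bp in cells. Both tissue focus ratios exceeded both cell ratios at 15 places, the reverse was found at 3, and 8 overlapped. Over the knockout, the median fold was 3.29 in male and 4.25 in female BAT.

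The 5 of these with the highest lowest value are named by their male BAT interval on mm8. At chr9:95235259-95235393 the normalized tags were 511.2 in male BAT, 423 in female BAT, 18.1 in untreated cells and 22.2 after FCCP. The focus ratio there was 0.946, 0.954, 0.788 and 0.797, and the fold over the knockout 2.12 (male) and 3.31 (female). The tissue peaks were thus far taller and more sharply centred. At chr17:67646372-67646506 the normalized tags were 207.2, 155.2, 13.4 and 16.1, with focus ratios of 0.800, 0.764, 0.790 and 0.774 that overlapped between the sides. At chr2:22439363-22439497 they were 79.2, 30.5, 14.4 and 20.5, and the focus ratio was low in every list, from 0.464 to 0.548. At chr2:69156388-69156522 they were 97.4, 38.2, 9.93 and 11.6. At chr5:60331056-60331190 they were 45.9, 18.6, 9.13 and 12.4, so at all 5 places both tissue lists were above both cell lists and male BAT was highest. The male peaks at these places were 2.12 to 3.23-fold over the knockout library, so tags were also found there in knockout tissue.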

How the data were processed

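GPS2 ChIP-seq peak lists of male BAT, female BAT, untreated 3T3-L1 and FCCP-treated 3T3-L1 were used. Per the submitters' processing notes, Bowtie2, Bowtie and HOMER were used with the mm8 build. Their versions are not given in the sources used here. Calling rules and total tags are those of the file headers. Normalized tag count, as deposited, is a signal per 10000000 tags, the deposited focus ratio a fraction, the deposited findPeaks score a score that served to rank peaks, and the deposited folds over the surroundings and the knockout are ratios. The deposited p-value columns entered no comparison. All of these were made by the authors peak by peak.

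Raw tags were computed from the normalized tag count and the total tags, and rounded. At a median of 13 to 30 tags, a single peak's values are imprecise. Medians, shares and spacings were computed for each list, and each side was the mean of its 2 lists, compared by an exact two-sided permutation test. Places where all lists overlap share at least 1 bp. Named positions are the 3 tallest peaks of each list (the tallest is printed), the 5 shared places with the highest lowest height and the 3 windows of 10 Mb at each extreme. Chromosomes X and Y, the mitochondrial and the unplaced sequences were left out (391, 428, 2150 and 3312 peaks). The members and measures were chosen with earlier results of these data known. No genome or annotation of mm8 was used here, so no genes are named and no sequences printed. The code was tested on simulated data. Computations ran in Python 3.11.15 with SciPy 1.17.1, pandas 2.3.3 and numpy 2.4.6, and plots in matplotlib 3.10.9.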

Additional observations from a re-analysis of the deposited data

Results flagged for a closer look

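Chromosome X lay outside the chromosomes compared and carried peaks in every list. It held 0.810% of the male BAT peaks on assembled chromosomes (324 of 39978), 2.09% of the female BAT peaks (399 of 19122), 4.48% of the untreated 3T3-L1 peaks (1993 of 44505) and 5.15% of the FCCP peaks (3104 of 60313). Both cell shares were above both tissue shares. Within tissue the share was lower in the list labelled male.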

How the results depend on the processing

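All differences are tissue minus cells, with 2 lists a side. Width, for which only the lists left out were varied, kept its direction. The number of chromosomes that separated the sides was 12 to 18 over the settings tried, against 16. With equal numbers of top-scoring peaks, the difference was -0.785 for the median normalized tag count, -0.125 for spacing relative to its mean, 3.72 percentage points for neighbours within 10 kb (reversed) and 0.520 for the variance to mean ratio (reversed). With at least 20 tags it was 0.0145 for the focus ratio, and, in the order just given, 2.60, -0.209, -17.1 and -8.78. Under the common rule, chosen after seeing the data, it was 0.0885 for the focus ratio, and -3.89, -0.0467, 7.50 (reversed) and 3.23 (reversed). At 4-fold over the surroundings the spacing difference was 0.0272. With all peaks taken, it was 1.27 for height per 100 bp, -0.260 for neighbours within 2 kb and -24.5 for windows of 5 Mb. The cause was not tested. Leaving out each list in turn gave 0.025 to 0.048 for the focus ratio, -128 to -124 bp for width, -0.72 to 0.29 for normalized tags, -0.0239 to 0.0130 for spacing, -15.3 to -3.03 for neighbours and -8.40 to -2.68 for the variance to mean ratio. No paired analysis was possible because each list is 1 condition and no number pairs a tissue list with a cell list. Few tags per peak limit the focus ratio of single peaks.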
